A study of Mus musculus with 14 samples.

Results

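The mouse genes that make, sense and move sterols and fatty acids were followed through central and effector regulatory T cells with or without the autophagy gene Atg14. A list of 35 genes was used, and each gene was read from the transcript cluster (the set of array probes that reads 1 gene) whose first symbol was that gene. Of the 35 genes, 34 had a transcript cluster, among 22203 that were tested, and each had exactly 1. Tm7sf2, which encodes a sterol reductase of late cholesterol synthesis, had no entry under that symbol. The 34 genes comprised 7 for the mevalonate steps, 11 for the steps from squalene to cholesterol, 5 for sterol sensing and transfer, 9 for fatty acid synthesis and 2 for cholesterol efflux. The first 2 groups are called the 18 sterol enzymes here.

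Cholesterol is built from acetyl-CoA through mevalonate, isoprenoid intermediates and squalene, and fatty acids are built from the same acetyl-CoA by carboxylation, chain extension and desaturation. When membrane cholesterol falls, the escort protein Scap carries SREBP transcription factors (Srebf1, Srebf2) out of the endoplasmic reticulum, where Insig proteins otherwise hold them, and the released factors switch on most genes of both pathways. The nuclear receptor LXR works in the opposite situation and raises the efflux pumps Abca1 and Abcg1, while regulatory T cells (Tregs, the Foxp3-expressing CD4 lineage) are known to need the mevalonate pathway for their suppressive function.

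RNA from sorted Tregs was hybridised to 14 Clariom S mouse arrays. Donor marrow marked CD45.2+ came from Foxp3-Cre Atg14+/fl mice (control, also labelled heterozygous) or Foxp3-Cre Atg14fl/fl mice (knockout, KO), so both groups carried the Foxp3-driven Cre, which deletes floxed DNA in Foxp3-expressing cells, and at least 1 floxed Atg14 allele. Marrow of either kind was mixed with wild-type CD45.1+ marrow and given to sublethally irradiated Rag1-/- hosts, which lack mature T and B cells of their own but keep their other blood cells, and donor-derived Tregs were sorted after reconstitution as cTregs (low CD44) or eTregs (high CD44). There were 4 control cTreg, 3 KO cTreg, 4 control eTreg and 3 KO eTreg arrays, spleen was named as the source by the methods, to which the series text added peripheral lymph nodes, and the ages of the mice were not given in the labels. Atg14 directs the lipid kinase Vps34 to autophagy, which raises the question of how lipid synthesis genes stood in its absence.

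All values are log2 signals, so a difference of 1 is a doubling, and signals of different genes were not set against each other because each probe set has its own brightness. Differences are given with 95% intervals from limma, a linear model with moderated variances, and adjusted P is the Benjamini-Hochberg value over all 22203 transcript clusters. A gene passed the study threshold with a difference of at least 0.5 in either direction and an unadjusted P under 0.05, and passed the adjusted threshold when its adjusted P was also under 0.05. Both subsets were described as sorted from 4 control and 3 KO chimeras, which makes the replicates mice, but the labels tie no array to a mouse and do not say that arrays of 1 number share one.

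Median signals of the 14 arrays lay between 8.77 and 8.90. The sorted populations bore their markers, with Foxp3 between 12.73 and 13.12 on every array and Cd44 higher in eTregs than in cTregs by 1.61 in controls. Labelled KO eTreg replicate 1 stood apart from the other eTreg arrays, with a mean of 9.88 over 6 effector Treg genes against 10.43 to 11.06, Tigit (an inhibitory receptor of effector Tregs) at 9.67 against 10.94 to 11.26, and Lef1 (a factor of resting T cells) at 12.40 against 11.94 to 12.15. Atg14 itself was not lower in the arrays labelled KO, where it ranged from 9.004 to 9.33 against 8.64 to 9.26 in controls. The difference was 0.32 in eTregs (adjusted P = 0.550, limma) and 0.35 in cTregs (adjusted P = 1.0), and whether the probes lie within the deleted part was not given in the sources used here. The authors reported having verified the deletion by quantitative PCR, in Tregs of Foxp3-Cre Atg14fl/fl mice and not on these arrays. The array signal does not show it, so the arrays are called labelled KO throughout. A direction given for the genotype is a direction between labels. A list of 12 monocyte and macrophage genes had a mean log2 signal of 8.14 to 8.27 in control cTregs, 8.31 to 8.41 in labelled KO cTregs, 8.79 to 9.18 in control eTregs and 8.59 to 10.66 in labelled KO eTregs, with the last group split between replicate 1, the lowest, and replicates 2 and 3. None of the 12 genes was at the level of the background probes in any group.

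Promoters of 3 genes are shown as examples of their kinds: Hmgcs1 (mevalonate synthesis), Nsdhl (late cholesterol synthesis) and Fads2 (fatty acid desaturation). Hmgcs1 passed no threshold in the main fit, and Fdps, the mevalonate gene that did, had no promoter window. Each is the RefSeq window of GRCm38.p6 of 300 bases that spans the start of the gene, written in the direction of the gene, at chr13:119690101-119690400 (plus strand), chrX:72918271-72918570 (plus strand) and chr19:10101454-10101753 (minus strand). Capitals mark matches, on either strand, to a sterol regulatory element (TCACNCCAC), a CCAAT box (CCAAT) and a GC box (GGGCGG).
Hmgcs1: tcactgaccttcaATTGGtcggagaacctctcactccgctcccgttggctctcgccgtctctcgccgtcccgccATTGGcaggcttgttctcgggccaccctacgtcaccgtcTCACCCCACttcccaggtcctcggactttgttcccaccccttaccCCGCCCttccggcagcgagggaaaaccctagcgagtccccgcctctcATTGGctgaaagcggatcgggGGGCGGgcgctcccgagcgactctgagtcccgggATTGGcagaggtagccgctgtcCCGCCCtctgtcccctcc
Nsdhl: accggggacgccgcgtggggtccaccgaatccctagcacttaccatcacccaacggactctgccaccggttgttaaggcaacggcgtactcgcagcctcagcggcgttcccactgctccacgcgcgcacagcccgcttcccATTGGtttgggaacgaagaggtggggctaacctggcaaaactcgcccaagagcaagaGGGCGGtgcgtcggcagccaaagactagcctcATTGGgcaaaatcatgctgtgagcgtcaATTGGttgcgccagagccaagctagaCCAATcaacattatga
Fads2: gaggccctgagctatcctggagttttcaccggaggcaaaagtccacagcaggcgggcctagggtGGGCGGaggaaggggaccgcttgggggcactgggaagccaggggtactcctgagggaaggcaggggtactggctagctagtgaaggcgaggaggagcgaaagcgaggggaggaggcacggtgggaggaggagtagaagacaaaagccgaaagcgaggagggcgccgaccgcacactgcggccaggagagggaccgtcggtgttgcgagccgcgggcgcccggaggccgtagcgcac

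Hmgcs1 held 1 match to the sterol regulatory element, TCACCCCAC, whose last base lay 128 bases before the start, together with 4 CCAAT boxes and 3 GC boxes. Nsdhl held 4 CCAAT boxes and 1 GC box, and Fads2 held 1 GC box and no match to the other motifs. Windows were present for 27 of the 35 genes. Tm7sf2 had one, and Fdps, Sqle, Fdft1, Stard4, Scd1, Scd2, Fads1 and Abcg1 had none. The CCAAT box was found in 21 of these 27 (77.8%) against 42.3% of 17491 protein-coding symbols. It was found in 15 of 16 sterol enzymes with a window, here counting Tm7sf2, against 3 of 6 fatty acid genes. The GC box was found in 22 of 27 (81.5%) against 49.2%, and the palindromic E-box CACGTG in 7 of 27 (25.9%) against 8.91%. The sterol regulatory element was found in Hmgcs1 alone of the 27 (3.70%) against 1.41% of protein-coding symbols. Over all 32851 windows the shares were 37.4% for the CCAAT box, 35.7% for the GC box, 7.15% for the E-box and 1.24% for the sterol element. No match overlapped another in the 3 printed windows, and a match describes the letters of the window only.

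Each of the 34 genes gave group means above the background probe sets. The same held for each of 5 B cell genes and of the 12 monocyte and macrophage genes, so this level does not show expression in Tregs. No gene had a group mean at or below the background probe sets, whose highest median was 6.30, and of all values of the 34 genes on the 14 arrays, 1 (Idi1 on labelled KO eTreg replicate 3, at 5.99) was below that level. Replicates of a group were close together, with a median SD over the genes and groups of 0.17, and the largest SD was 1.14, for Abca1 in labelled KO eTregs.

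**Figure D1:**
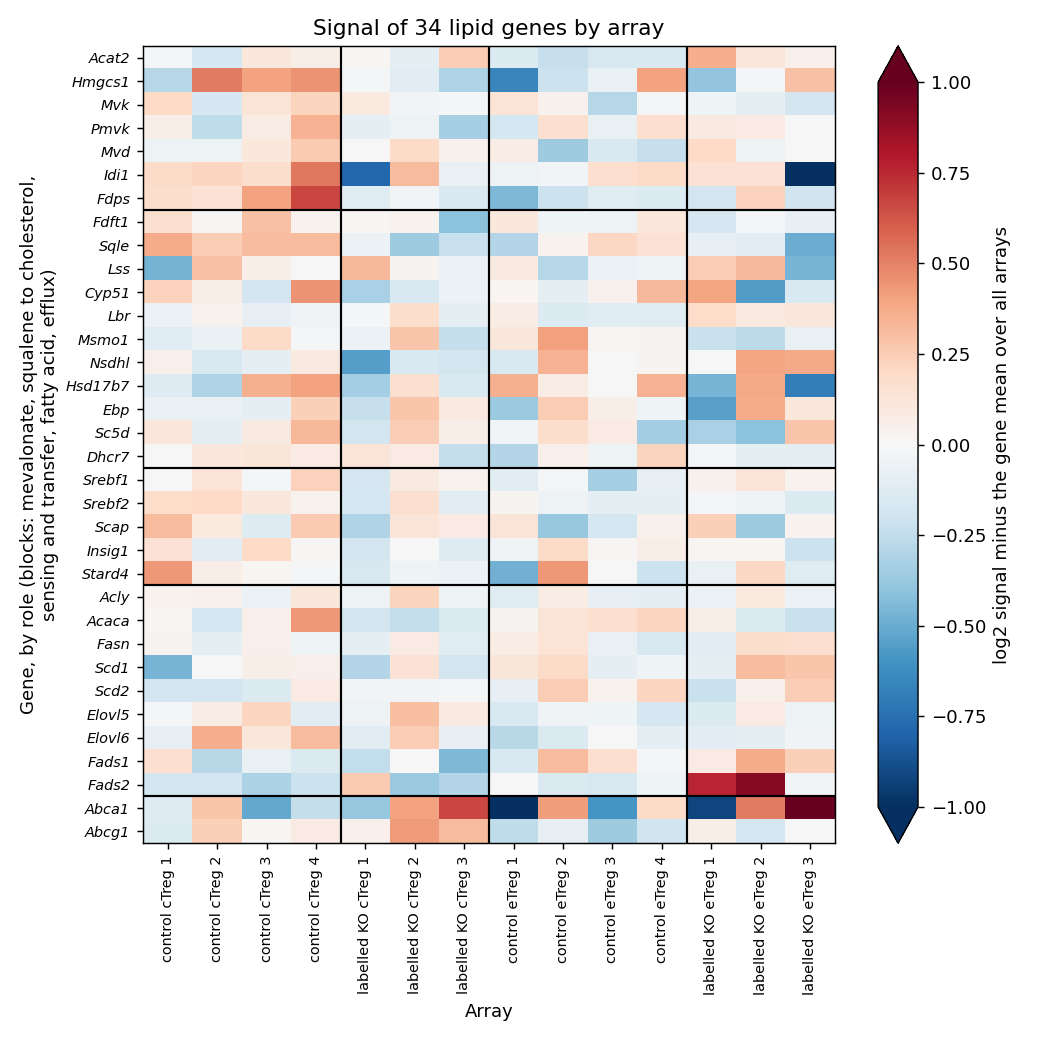
Log2 signal of the 34 measured genes (rows, in blocks by role) on each of the 14 arrays (columns, in blocks by group), shown as the deviation from the mean of the gene over all arrays, with colours ending at 1 in either direction. Control cTregs stand above the mean for Fdps and Sqle, labelled KO eTreg replicates 1 and 2 stand above it for Fads2, and Abca1 spreads within every group.

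Across the list, differences between the groups were small and few genes passed a threshold. Between eTregs and cTregs of controls, 9 of the 34 genes were higher in eTregs and 25 lower, with a median difference of -0.10 against 0.00 over all transcript clusters. Of the 34 genes, 1 (2.94%) passed the study threshold against 4.72% of all transcript clusters, and 1 passed the adjusted threshold against 3.06%. Unadjusted P was under 0.05 for 5 (14.7%) against 12.8%, all 5 lower in eTregs, and the eTreg and cTreg arrays did not overlap for 3 genes lower in eTregs (8.82%, against 5.02% of all transcript clusters) and 1 higher (2.94%, against 6.12%). Most of these shares were near the background.

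Between eTregs and cTregs of the arrays labelled KO, 19 genes were higher in eTregs and 15 lower, with a median of 0.04 against -0.04 over all. The study threshold was passed by 2 of 34 (5.88%) against a background of 5.81%, and the adjusted threshold by 0 in limma against 2.35%. With the replicate number within genotype as a random block in limma, Nsdhl (adjusted P = 0.0253) and Fads2 (0.0358) passed it. The share of all transcript clusters was not counted for that fit. Unadjusted P was under 0.05 for 4 (11.8%) against 13.8%, and the arrays did not overlap for 3 genes higher in eTregs (8.82% against 6.46%) and 1 lower (2.94% against 7.49%).

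Between genotypes in cTregs, 11 genes were higher in arrays labelled KO and 23 lower, with a median of -0.10 against 0.02 over all. The study threshold was passed by 1 of 34 (2.94%) against 0.576% of all transcript clusters, and the adjusted threshold by 0 in limma against 0.0450%. Unadjusted P was under 0.05 for 3 (8.82%) against 4.01%, all 3 lower in arrays labelled KO, and the arrays did not overlap for 3 genes lower with the KO label (8.82% against 2.35%) and 0 higher (0% against 2.70%). Between genotypes in eTregs, 21 genes were higher in arrays labelled KO and 13 lower, with a median of 0.06 against -0.02. The study threshold was passed by 1 of 34 against 2.72%, the adjusted threshold by 0 in limma against 0.117%, and unadjusted P was under 0.05 for 3 (8.82%) against 8.03%. The arrays did not overlap for 3 genes higher with the KO label (8.82% against 3.01%) and 1 lower (2.94% against 3.84%). In the test of the difference between both genotype effects (that in eTregs minus that in cTregs, the interaction), 26 genes had a positive value and 8 a negative one. Over all transcript clusters 43.6% had a positive value, with a median of -0.03. The interaction uses all 4 groups, so its signs are not independent of the comparisons above. The study threshold was passed by 1 against 3.05%, the adjusted threshold by 0 in limma against 0% of all transcript clusters, and unadjusted P was under 0.05 for 2 (5.88%) against 6.12%. Control cTreg arrays enter the subset comparison of controls and the genotype comparison of cTregs alike, so the values of both are given side by side and are not 2 independent observations.

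The mevalonate genes were the group in which a change passed the adjusted threshold. All 7 (Acat2, Hmgcs1, Mvk, Pmvk, Mvd, Idi1 and Fdps) had a lower mean in control eTregs than in control cTregs, with a median difference of -0.21, and 1 of the 7, Fdps, passed a threshold. In arrays labelled KO, 4 of the 7 were higher in eTregs and 3 lower, with a median of 0.05. Between genotypes, 5 of 7 were lower in labelled KO cTregs than in control cTregs (median -0.22) and 5 of 7 were higher in labelled KO eTregs (median 0.10).

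Fdps encodes farnesyl diphosphate synthase, which makes the isoprenoid used for squalene and for prenylation of proteins. Its signals in control cTregs were 10.87, 10.84, 11.10 and 11.37, and in control eTregs 10.25, 10.49, 10.58 and 10.56. In arrays labelled KO they were 10.58, 10.67 and 10.55 in cTregs and 10.51, 10.93 and 10.50 in eTregs. The control cTregs stood above every other array but labelled KO eTreg replicate 2, which lay between their values. Fdps fell by 0.58 from cTregs to eTregs in controls (-0.58, 95% interval -0.86 to -0.29, adjusted P = 0.0206, limma), and the difference in arrays labelled KO was 0.05 (-0.28 to 0.37). The adjusted P rose above 0.05 when control eTreg replicate 1 or 2, or control cTreg replicate 3 or 4, was left out, and reached 0.0736 without the last of these, with a difference of -0.47 that no longer passed the study threshold. Between genotypes, Fdps was lower by -0.45 in labelled KO cTregs (-0.75 to -0.14, unadjusted P = 0.00671, adjusted P = 1.0), with no overlap of the arrays, and differed by 0.18 in eTregs (-0.13 to 0.48). The interaction was 0.62 (0.19 to 1.05, unadjusted P = 0.00736, adjusted P = 0.736), the 1 value of the list past the study threshold in that test, and it was 0.48 and no longer past it without labelled KO eTreg replicate 2.

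Hmgcs1, the HMG-CoA synthase whose promoter is printed above, read 8.96, 9.77, 9.65 and 9.70 in control cTregs and 8.59, 9.03, 9.18 and 9.65 in control eTregs. In arrays labelled KO it read 9.23, 9.14 and 8.94 in cTregs and 8.86, 9.24 and 9.55 in eTregs. Control cTreg replicate 1 stood far below the other 3 of its group, and the groups overlapped in every comparison. The difference between eTregs and cTregs was -0.40 in controls (-0.86 to 0.05) and 0.11 in arrays labelled KO (-0.42 to 0.64), and that between genotypes was -0.41 in cTregs (-0.91 to 0.08) and 0.10 in eTregs (-0.40 to 0.59). Leaving out control cTreg replicate 1 moved the genotype difference in cTregs to -0.60 and the subset difference in controls to -0.59, both then past the study threshold, and leaving out control eTreg replicate 4 moved the latter to -0.58, also past it.

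Acat2, a cytosolic thiolase that joins acetyl-CoA units, was the mevalonate gene whose arrays separated between genotypes in eTregs. It read 9.57, 9.47, 9.55 and 9.56 in control eTregs and 10.07, 9.82 and 9.76 in labelled KO eTregs, so every array labelled KO was above every control. The difference was 0.34 (0.10 to 0.58, unadjusted P = 0.00820, adjusted P = 0.357, limma). In cTregs Acat2 read 9.69, 9.53, 9.82 and 9.77 in controls and 9.73, 9.62 and 9.96 in arrays labelled KO, which overlapped, with a difference of 0.07 (-0.17 to 0.31). Mvk (mevalonate kinase) and Pmvk (phosphomevalonate kinase) differed between genotypes by -0.07 and 0.04 in eTregs and by -0.08 and -0.22 in cTregs. In arrays labelled KO the eTregs and cTregs did not overlap for Pmvk, which was higher in eTregs by 0.22 (-0.09 to 0.53), nor for Mvk, which was lower by -0.12 (-0.40 to 0.15), and neither passed a test. Mvd, which makes isopentenyl diphosphate, differed by -0.23 between control eTregs and cTregs (-0.47 to 0.01) and by 0.22 between genotypes in eTregs (-0.04 to 0.48). Idi1, the isopentenyl diphosphate isomerase, had its lowest values, 5.99 and 6.34, on a labelled KO eTreg and a labelled KO cTreg array. Its interval between genotypes ran from -0.93 to 0.23 in eTregs and from -1.04 to 0.12 in cTregs, and the sign in eTregs turned without labelled KO eTreg replicate 3.

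**Figure D2:**
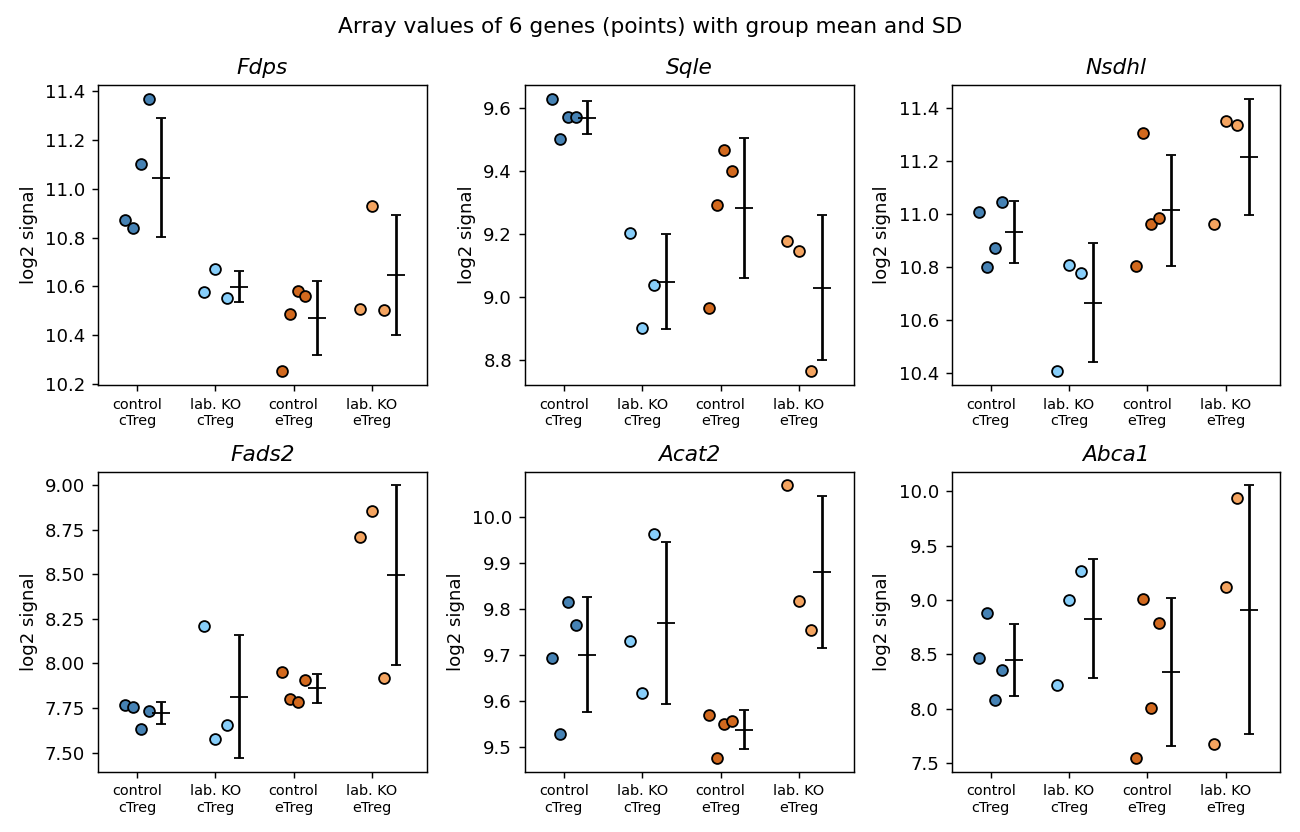
Log2 signal (vertical axis) of 6 genes on each array (points) in the 4 groups, with the group mean and SD as bars (n = 4 control and n = 3 labelled KO arrays per subset). Control cTregs are above control eTregs for Fdps and Sqle, labelled KO eTregs are above control eTregs for Acat2, Fads2 is high on 2 of 3 labelled KO eTreg arrays, and Abca1 overlaps between all groups.

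Among the 11 measured genes from squalene to cholesterol, 8 had a lower mean in control eTregs than in control cTregs (median -0.04) and 7 in arrays labelled KO (median -0.06). Between genotypes, 8 of 11 were lower in labelled KO cTregs (median -0.09) and 7 of 11 in labelled KO eTregs (median -0.12). With the mevalonate genes, 15 of the 18 sterol enzymes were lower in control eTregs, which was 12 of 18 without control cTreg replicate 4, and 13 of 18 in labelled KO cTregs, which was 11 to 16 over the alternatives tried. For comparison, 49.3% of all transcript clusters were lower in the first comparison and 45.2% in the second.

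Sqle encodes squalene epoxidase, the first oxygen-dependent step of sterol synthesis. It read 9.63, 9.50, 9.57 and 9.57 in control cTregs, 9.20, 8.90 and 9.04 in labelled KO cTregs, 8.96, 9.29, 9.46 and 9.40 in control eTregs, and 9.18, 9.15 and 8.76 in labelled KO eTregs. The 4 control cTregs were above each of the other 10 arrays. Sqle was lower by -0.52 in labelled KO cTregs (-0.81 to -0.24, unadjusted P = 0.00137), the 1 gene past the study threshold in that comparison, and its adjusted P was 0.832 in limma. Without labelled KO cTreg replicate 2 it was -0.45, short of the threshold. It was lower by -0.29 in control eTregs than in control cTregs (-0.55 to -0.02, adjusted P = 0.325), again with no overlap. The difference between genotypes in eTregs was -0.25 (-0.54 to 0.03), the arrays overlapped, and the interaction was 0.27 (-0.13 to 0.67, unadjusted P = 0.176).

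Nsdhl encodes a sterol dehydrogenase that takes part in removing the methyl groups at carbon 4. It read 10.40, 10.81 and 10.78 in labelled KO cTregs and 10.96, 11.35 and 11.34 in labelled KO eTregs, which did not overlap, and 11.01, 10.80, 10.87 and 11.05 in control cTregs against 10.80, 11.30, 10.96 and 10.98 in control eTregs, which did. The eTreg minus cTreg difference was 0.55 in arrays labelled KO (0.23 to 0.88, unadjusted P = 0.00235, adjusted P = 0.0735) and 0.08 in controls (-0.20 to 0.36). Between genotypes it was -0.27 in cTregs (-0.57 to 0.03) and 0.20 in eTregs (-0.10 to 0.51), with an interaction of 0.47 (0.04 to 0.90, unadjusted P = 0.0334, adjusted P = 0.797, limma). Between subsets labelled KO, Nsdhl dropped out of the study threshold without labelled KO cTreg replicate 1 (0.42), eTreg replicate 2 (0.49) or eTreg replicate 3 (0.49). Its adjusted P there was 0.0148 in limma without labelled KO eTreg replicate 1, the array that stood apart in its effector genes. With the replicate number within genotype as a random block in limma, that adjusted P was 0.0253.

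Msmo1, the methylsterol oxidase that acts in the same demethylation as Nsdhl, went the other way between genotypes in eTregs. It read 9.83, 10.12, 9.73 and 9.74 in control eTregs and 9.49, 9.45 and 9.64 in labelled KO eTregs, with no overlap. The difference was -0.33 (-0.61 to -0.04, unadjusted P = 0.0271, adjusted P = 0.526, limma), and in cTregs it was -0.01 (-0.29 to 0.28). Lbr, a nuclear envelope protein with sterol reductase activity, read 11.883, 11.677, 11.687 and 11.689 in control eTregs and 11.995, 11.899 and 11.921 in labelled KO eTregs. Every array labelled KO was above every control, narrowly at the closest pair, and the difference was 0.20 (-0.0032 to 0.41, unadjusted P = 0.0532). Hsd17b7, a sterol ketoreductase, had the lowest genotype value in eTregs, -0.46 (-0.95 to 0.03), from arrays of 8.65, 9.49 and 8.42 against 9.47, 9.19, 9.12 and 9.46, which overlapped. Without labelled KO eTreg replicate 2 the value was -0.78 and past the study threshold (adjusted P = 0.267, limma).

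The other 6 genes of this stretch gave no value with an unadjusted P under 0.05 in any comparison. They were Fdft1 (squalene synthase), Lss (lanosterol synthase), Cyp51 (lanosterol demethylase), Ebp (a sterol isomerase), Sc5d (a sterol desaturase) and Dhcr7 (which reduces 7-dehydrocholesterol to cholesterol). Between genotypes in cTregs, Cyp51 differed by -0.32 (-0.72 to 0.09) and Fdft1 by -0.25 (-0.50 to 0.01), and in eTregs by -0.18 (-0.58 to 0.23) and -0.12 (-0.38 to 0.14). Lss, Ebp, Sc5d and Dhcr7 lay between -0.12 and 0.13 in both genotype comparisons. The interval of Lss in eTregs ran from -0.30 to 0.53 and that of Sc5d from -0.49 to 0.24, so shifts within those bounds could not be told from none with these arrays.

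Sterol sensors and the transfer protein gave small values of 1 sign within each of 2 comparisons. All 5 (Srebf1, Srebf2, Scap, Insig1 and Stard4) had a lower mean in control eTregs than in control cTregs, with a median of -0.19, and 4 of 5 when each array was scaled to its 75th percentile. All 5 were lower in labelled KO cTregs than in control cTregs, with a median of -0.17, and 3 of 5 were higher in labelled KO eTregs (median 0.07). None passed the study threshold in any comparison. Srebf2, the SREBP that chiefly drives cholesterol genes, read 12.62, 12.63, 12.55 and 12.47 in control cTregs and 12.46, 12.38, 12.34 and 12.34 in control eTregs, without overlap, a difference of -0.19 (-0.38 to 0.01, unadjusted P = 0.0662). Its arrays labelled KO read 12.26, 12.60 and 12.32 in cTregs and 12.42, 12.38 and 12.29 in eTregs.

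Srebf1, which encodes the SREBP forms that lean towards fatty acid genes, read 11.03, 11.17, 11.01 and 11.26 in control cTregs and 10.92, 11.02, 10.70 and 10.94 in control eTregs. These overlapped at 1 pair of arrays, and the difference was -0.22 (-0.44 to -0.01, unadjusted P = 0.0426, adjusted P = 0.359). Its labelled KO eTregs, at 11.07, 11.16 and 11.06, were all above the control eTregs, by 0.20 (-0.03 to 0.44, unadjusted P = 0.0786). Stard4, which carries cholesterol between membranes, read 9.28, 9.40 and 9.38 in labelled KO cTregs against 9.87, 9.51, 9.46 and 9.43 in control cTregs, without overlap, a difference of -0.22 (-0.59 to 0.15, unadjusted P = 0.235). Scap differed between genotypes by -0.17 in cTregs and 0.07 in eTregs, and Insig1 by -0.16 and -0.12, all with intervals that included 0.

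**Figure D3:**
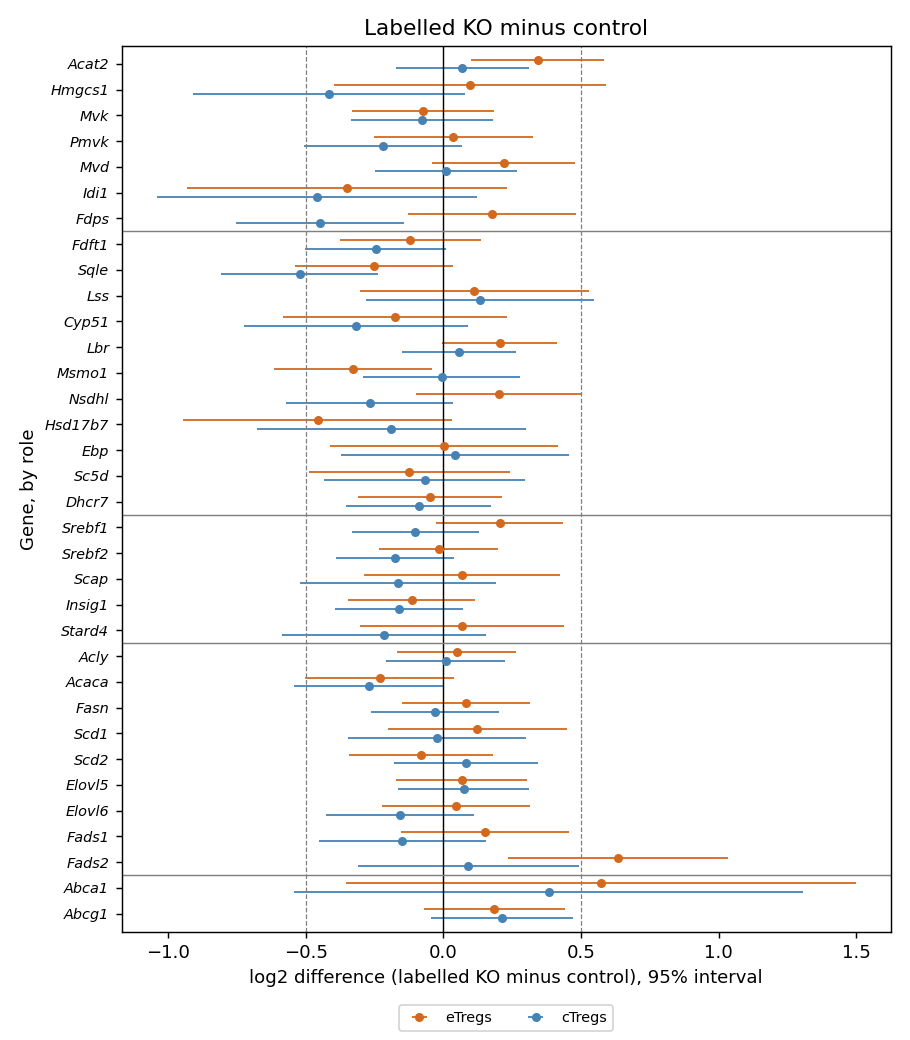
Log2 difference between arrays labelled KO and control arrays (horizontal axis, points) with 95% intervals from limma (bars) for each of the 34 genes, in eTregs and in cTregs, with solid grey lines between roles and dashed lines at -0.5 and 0.5. Sqle in cTregs, at -0.52, and Fads2 and Abca1 in eTregs, at 0.63 and 0.57, are the points beyond the dashed lines, and the interval of Abca1 includes 0.

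Of the 9 fatty acid genes, 6 had a higher mean in control eTregs than in control cTregs and 3 a lower one, with a median of 0.05, and 6 were higher in labelled KO eTregs than in labelled KO cTregs (median 0.09). Between genotypes, 4 were higher in labelled KO cTregs (median -0.02) and 7 in labelled KO eTregs (median 0.07). Among the early enzymes, Acly (ATP citrate lyase, which supplies cytosolic acetyl-CoA) differed between genotypes by 0.05 in eTregs (-0.17 to 0.27) and 0.01 in cTregs (-0.21 to 0.23), and Fasn (fatty acid synthase) by 0.08 (-0.15 to 0.32) and -0.03 (-0.26 to 0.20). Acaca, the acetyl-CoA carboxylase that commits carbon to fatty acids, was lower by -0.27 in labelled KO cTregs (unadjusted P = 0.0499, adjusted P = 1.0), from arrays of 10.14, 10.09 and 10.18 against 10.34, 10.15, 10.38 and 10.76 that overlapped, and by -0.23 in labelled KO eTregs (-0.50 to 0.04).

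Fads2, the delta-6 desaturase that starts the synthesis of long polyunsaturated fatty acids, had the largest differences of the list that passed the study threshold in arrays labelled KO. Its signals were 7.77, 7.75, 7.63 and 7.74 in control cTregs, 7.95, 7.80, 7.78 and 7.91 in control eTregs, 8.21, 7.58 and 7.66 in labelled KO cTregs, and 8.71, 8.86 and 7.92 in labelled KO eTregs. Labelled KO eTreg replicates 1 and 2 stood above all other arrays, and replicate 3 lay within the control eTregs. The difference between genotypes in eTregs was 0.63 (0.23 to 1.03, unadjusted P = 0.00402, adjusted P = 0.285, limma), the 1 gene past the study threshold there, and in cTregs it was 0.09 (-0.31 to 0.49). Between subsets it was 0.68 in arrays labelled KO (0.25 to 1.11, unadjusted P = 0.00387, adjusted P = 0.0993) and 0.14 in controls (-0.23 to 0.51), where the arrays did not overlap but the size was small. Without labelled KO eTreg replicate 2 the genotype difference was 0.45 and no longer past the study threshold (adjusted P = 0.750, limma), and without replicate 3 it was 0.92 with an adjusted P of 0.0365. With the replicate number within genotype as a random block in limma, the adjusted P between subsets labelled KO was 0.0358. The interaction of 0.54 then passed the study threshold (adjusted P = 0.475), as it did with a fixed block (0.499). Fads2 was among the 3 genes of the list, with Idi1 and Scd1, below the 40th percentile of mean signal, and a filter there removed it.

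Fads1, the delta-5 desaturase that acts after Fads2, read 9.58, 9.83 and 9.37 in labelled KO cTregs and 9.91, 10.19 and 10.06 in labelled KO eTregs, without overlap, a difference of 0.46 (0.13 to 0.79, unadjusted P = 0.00855, adjusted P = 0.153). In controls the difference was 0.16 (-0.12 to 0.44). Between genotypes Fads1 differed by -0.15 in cTregs (-0.45 to 0.16) and by 0.15 in eTregs (-0.15 to 0.46). Elovl6, which extends saturated chains, was lower in control eTregs by -0.31 (-0.55 to -0.06, unadjusted P = 0.0193, adjusted P = 0.232), with arrays of 9.51, 9.64, 9.79 and 9.69 against 9.70, 10.15, 9.90 and 10.10 that overlapped at 1 pair. Scd1 and Scd2, which put the first double bond into saturated chains, and Elovl5, which extends polyunsaturated ones, had no unadjusted P under 0.05. Scd1 differed between subsets by 0.13 in controls (-0.17 to 0.43) and 0.28 in arrays labelled KO (-0.07 to 0.62), Scd2 by 0.21 (-0.03 to 0.45) and 0.05 (-0.23 to 0.33), and Elovl5 by -0.14 (-0.36 to 0.08) and -0.15 (-0.40 to 0.11).

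**Figure D4:**
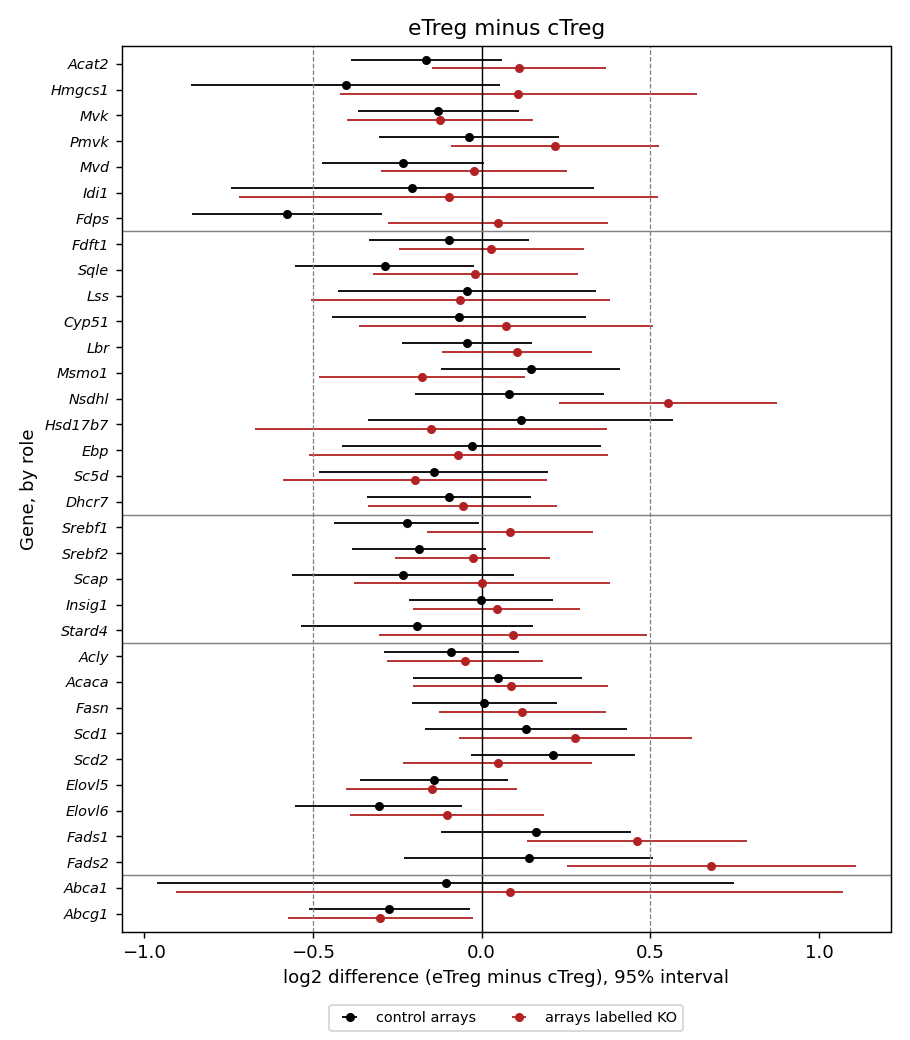
Log2 difference between eTregs and cTregs (horizontal axis, points) with 95% intervals from limma (bars) for each of the 34 genes, in control arrays and in arrays labelled KO, with solid grey lines between roles and dashed lines at -0.5 and 0.5. Fdps in controls, at -0.58, and Nsdhl and Fads2 in arrays labelled KO, at 0.55 and 0.68, lie beyond the dashed lines.

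The 2 efflux pumps differed in how closely their replicates agreed. Abcg1, which passes cholesterol to lipoproteins, was lower in eTregs than in cTregs by -0.27 in controls (-0.51 to -0.04, unadjusted P = 0.0268, adjusted P = 0.286) and by -0.30 in arrays labelled KO (-0.58 to -0.03, unadjusted P = 0.0338, adjusted P = 0.307). It read 9.99, 10.37, 10.15 and 10.21 in control cTregs, 9.87, 10.05, 9.77 and 9.93 in control eTregs, 10.18, 10.55 and 10.45 in labelled KO cTregs, and 10.20, 9.95 and 10.13 in labelled KO eTregs. The subsets overlapped within both genotypes. Between genotypes it differed by 0.21 in cTregs (-0.04 to 0.47) and 0.19 in eTregs (-0.07 to 0.44).

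Abca1, which passes cholesterol to lipid-poor apolipoproteins, read 8.47, 8.88, 8.08 and 8.36 in control cTregs, 7.55, 9.01, 8.01 and 8.79 in control eTregs, 8.22, 9.004 and 9.26 in labelled KO cTregs, and 7.68, 9.12 and 9.93 in labelled KO eTregs. The replicates of the eTreg groups spread widely (SD 0.68 for controls, 1.14 with the KO label), and all groups overlapped. The genotype difference was 0.57 in eTregs (-0.35 to 1.50, unadjusted P = 0.207) and 0.38 in cTregs (-0.54 to 1.31). Leaving out 1 array at a time took the value in eTregs as low as 0.06 and as high as 1.19, the latter without labelled KO eTreg replicate 1. Labelled KO eTreg replicates 2 and 3, the arrays with the highest Abca1 values of their group, were also those with the highest monocyte and macrophage signal (means of 10.65 and 10.66 over the 12 genes). Labelled KO cTregs held the same order of Abca1 values by replicate, with means of 8.31, 8.40 and 8.41. Among control eTregs, Abca1 read 7.55, 9.01, 8.01 and 8.79 where the means were 9.07, 9.18, 8.89 and 8.79. The part of other cells in the Abca1 values was not tested, and in bulk RNA fewer cells of a type and less RNA per cell cannot be told apart.

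A further list of 44 genes of the same pathways, of which 42 had a transcript cluster, held some larger differences. Between genotypes in eTregs, 4 of the 42 passed the study threshold, 3 being higher and 1 lower with the KO label (9.52% against 2.72% of all transcript clusters), and 0 passed the adjusted threshold in limma (against 0.117%), while unadjusted P was under 0.05 for 6 (14.3% against 8.03%). In cTregs 0 passed either threshold in limma (against 0.576% and 0.0450%) and unadjusted P was under 0.05 for 3 (7.14% against 4.01%). Between subsets, the study threshold was passed by 2 in controls (4.76% against 4.72%) and by 6 with the KO label (14.3% against 5.81%), and 1 (2.38% against 3.06%) and 3 (7.14% against 2.35%) passed the adjusted threshold. For the interaction, 4 passed the study threshold (9.52% against 3.05%) and 0 the adjusted one in limma (against 0%), with 6 at an unadjusted P under 0.05 (14.3% against 6.12%).

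Nr1h3 encodes LXR alpha, the sterol-sensing receptor that drives Abca1 and Abcg1 and is abundant in macrophages. It read 8.24, 9.18, 8.78 and 8.21 in control cTregs, 9.49, 10.11, 9.65 and 9.27 in control eTregs, 8.40 to 9.10 in the 3 labelled KO cTreg arrays, and 9.94, 11.87 and 11.72 in labelled KO eTregs. Every eTreg array was above every cTreg array of its genotype. It rose by 2.34 from cTregs to eTregs in arrays labelled KO (1.49 to 3.20, adjusted P = 0.00441, limma) and was higher by 1.03 in control eTregs (0.29 to 1.77, adjusted P = 0.154). The genotype difference in eTregs was 1.55 (0.75 to 2.34, unadjusted P = 0.000856, adjusted P = 0.167), and labelled KO replicate 1 lay within the controls.

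Fabp5, a carrier of fatty acids in the cytosol, rose by 1.39 from cTregs to eTregs in arrays labelled KO (adjusted P = 0.0187), from 8.63, 9.22 and 9.09 to 9.45, 10.72 and 10.96. Cyb5r3, the reductase that supplies electrons to desaturases and sterol oxidases, rose there by 1.01 (adjusted P = 0.00669), from 10.87, 11.59 and 11.44 to 12.22, 12.33 and 12.37, and was higher by 0.56 in labelled KO eTregs than in control eTregs (adjusted P = 0.301), without overlap. Acsl1, which activates long-chain fatty acids, was lower by -0.66 in labelled KO eTregs (-1.04 to -0.27, unadjusted P = 0.00220, adjusted P = 0.236), at 7.22, 7.68 and 7.40 against 8.00, 8.10, 7.98 and 8.28, without overlap. Hacd3, a dehydratase of chain extension, rose by 0.55 from cTregs to eTregs in controls (adjusted P = 0.0240) and was higher by 0.59 in arrays labelled KO (adjusted P = 0.0504). Acss2, which makes acetyl-CoA from acetate, was lower by -0.52 in labelled KO eTregs than in labelled KO cTregs (adjusted P = 0.0921), without overlap.

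All 12 monocyte and macrophage genes were higher in labelled KO eTregs than in control eTregs, with a median of 1.03. Of these, 8 passed the study threshold (66.7% against 2.72% of all transcript clusters) and 0 the adjusted one in limma (against 0.117%), with an unadjusted P under 0.05 for 9 (75% against 8.03%). Mrc1 (a macrophage mannose receptor) read 7.29, 11.29 and 10.64 in labelled KO eTregs against 8.15, 8.80, 7.79 and 7.86 in controls. Nr1h3 and Fabp5 were highest on the same 2 arrays as these genes, and their part in the values of Nr1h3, Fabp5 and Abca1 was not tested.

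Other cell type lists were also compared between genotypes in eTregs. Of 6 dendritic cell genes, 3 passed the study threshold, against 2.72% of all transcript clusters, all higher with the KO label (Siglech, Xcr1 and Bst2). The adjusted threshold was passed by 1, against 0.117%. Flt3, Zbtb46 and Clec9a went the other way, with a slightly lower mean with the KO label. Bst2 also read 11.20 to 11.77 on the cTreg arrays, so its signal was not particular to the labelled KO eTregs. Siglech, a receptor of plasmacytoid dendritic cells, read 9.78, 10.79 and 10.65 in labelled KO eTregs against 8.86, 8.55, 8.73 and 8.37 in controls, a difference of 1.78 (adjusted P = 0.000483, limma), and was thus high on replicate 1 as well. All 12 cell cycle genes had a higher mean with the KO label and 2 passed the study threshold, against 2.72% of all transcript clusters. All 4 CD8 T and NK cell genes and 4 of 5 B cell genes had a higher mean. All 4 erythroid genes had a lower one and 2 of 4 neutrophil genes a higher one. Of these genes, 0 passed the study threshold in limma, against 2.72%. Unadjusted P was under 0.05 for 1 of 4 CD8 T and NK cell genes and 1 of 5 B cell genes, against 8.03%. The part of these cells in the lipid gene values was not tested.

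Fads2 was highest on labelled KO eTreg replicate 2, at 8.86, where the 12 monocyte and macrophage genes had a mean of 10.65. It was also high on replicate 1, at 8.71, where those 12 genes had the lowest mean of all eTreg arrays (8.59). On replicate 1 the effector Treg genes were low. Siglech was high on all labelled KO eTreg arrays, at 9.78, 10.79 and 10.65 in order of replicate. On replicate 3 Fads2 was within the control eTreg range, at 7.92, with a mean of 10.66 over the 12 genes. Among cTregs Fads2 was highest on labelled KO replicate 1, at 8.21, where Siglech read 8.19, within the range of the other cTreg arrays. The part of other cells in the Fads2 values was not tested.

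**Figure D5:**
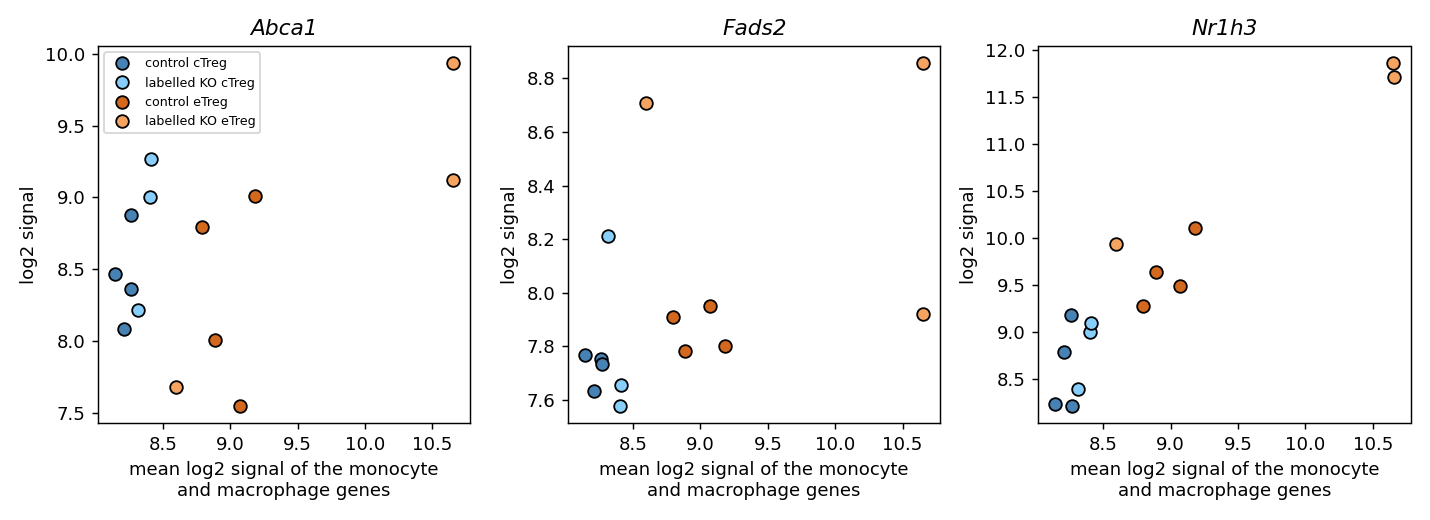
Log2 signal of Abca1, Fads2 and Nr1h3 (vertical axes) against the mean log2 signal of 12 monocyte and macrophage genes (horizontal axis) on each of the 14 arrays, coloured by group. The 2 labelled KO eTreg arrays at 10.65 and 10.66 on the horizontal axis hold the highest Nr1h3 values, 11.87 and 11.72. Their Fads2 values are 8.86 and 7.92, and the labelled KO eTreg array at 8.59 has a Fads2 value of 8.71.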

How the data were processed

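The authors sorted donor-derived Tregs, amplified the RNA for Clariom S mouse arrays and summarised probes by RMA in Affymetrix Expression Console 1.1, per the labels and the submitters' processing notes. The deposited values were log2 signals, already background corrected and quantile normalised over all arrays, so differences are relative to an equal signal distribution. Array scans were not used here, so those steps could not be varied, and the number of arrays limits precision. Of 28846 entries, 6643 had no symbol and were left out, and the remaining 22203 were tested without a filter. Log2 values were fitted in limma 3.58.1 (R 4.3.3) with 1 mean for each of the 4 groups and no covariate (10 residual and 5.65 prior degrees of freedom). The script was tested on simulated data. Alternatives were a signal filter, 2 scalings, array weights, another variance model, pairwise fits, replicate blocks and leaving out each array. Same-numbered cTreg and eTreg arrays of a genotype correlated in their deviations from the group means by 0.044 to 0.303. No label ties a number to a mouse, so the numbers were not taken as pairs. The main fit therefore treated cTreg and eTreg arrays as independent, and values with a block are given where they change a call. The random block joined same-numbered arrays within a genotype. The fixed block did so between subsets and for the interaction, and used the number over both genotypes for the genotype comparisons. All listed genes were to be named, and genes of the further pathway list only if past the study threshold without overlap between arrays, at most 5 per comparison. Both lists, the marker lists and the questions were chosen with earlier results of these data known. Promoter windows came from RefSeq (GRCm38.p6). Symbols are those of the deposited table.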

Additional observations from a re-analysis of the deposited data

Results flagged for a closer look

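Of 68 groups of 4 control arrays (34 genes in each subset), 5 held 1 array far from the other 3, where chance gives about 3.4. In control cTregs, Hmgcs1 read 8.9608 on replicate 1 against 9.65 to 9.77 on the others, and Scd1 read 7.6082 on the same array against 8.07 to 8.13. Idi1 read 7.6476 on control cTreg replicate 4 against 7.30 to 7.34, and Ebp read 10.7512 on that array against 10.43 to 10.45. In control eTregs, Lbr read 11.8825 on replicate 1 against 11.68 to 11.69. Groups of 3 arrays were not tested in this way. No difference between the genotype effects of eTregs and cTregs passed the adjusted threshold in limma (0 of 34, with an unadjusted P under 0.05 for 2).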

How the results depend on the processing

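Over 170 single values (34 genes in 5 tests), 3504 of 3691 alternatives kept the direction and the side of the adjusted threshold, 176 turned direction with no call in either fit (in 70 of the values, at most 0.351 in size), 7 gained a call, 4 lost one and 0 turned direction with a call. The 4 losses were Fdps between control subsets, without control eTreg replicate 1 (adjusted P = 0.0688) or 2 (0.0514) or control cTreg replicate 3 (0.0672) or 4 (0.0736). The filter on low signal, which left 13322 transcript clusters and removed Fads2, brought the genes past the study threshold from 1 to 0 between genotypes in eTregs and from 2 to 1 between subsets labelled KO. Array weights gave 3 between genotypes in eTregs (Idi1, Hsd17b7 and Abca1, without Fads2), 2 between genotypes in cTregs, and 1 past the adjusted threshold between subsets labelled KO (Nsdhl, adjusted P = 0.0350). Subtracting array medians gave 3 past the study threshold for the interaction (Fdps, Nsdhl and Fads2). The replicate block, where it is not stated that the numbers pair the samples, gave 2 for the interaction (Fdps and Fads2), as did the random replicate block (consensus correlation 0.238), which also put 2 past the adjusted threshold between subsets labelled KO (Nsdhl, adjusted P = 0.0253, and Fads2, 0.0358). Of 7 cTreg arrays, 6 correlated best with the eTreg array of their own number. Same-numbered arrays of different genotypes within a subset also correlated in their deviations, by 0.010 to 0.291. The cause of these shifts was not tested, other than the removal by the filter. Shares over all transcript clusters were counted for the main fit only. The counts under the alternatives, including those that follow, therefore have no background beside them. Leaving out 1 array gave ranges past the study threshold of 1 to 2 between genotypes in eTregs, 1 to 3 in cTregs, 0 to 2 between control subsets, 1 to 3 between subsets labelled KO and 1 to 2 for the interaction, and past the adjusted threshold of 0 to 1, 0 to 0, 0 to 1, 0 to 1 and 0 to 0. The gains past the adjusted threshold were Fads2 between genotypes in eTregs without labelled KO eTreg replicate 3 (0.0365), and between subsets labelled KO Fads2 without that array (0.00719) or labelled KO cTreg replicate 1 (0.0466) and Nsdhl without labelled KO eTreg replicate 1 (0.0148). A mean over several entries of 1 gene was not run, since each gene had 1, and a fit of only the groups compared gives no interaction.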
